A study of Homo sapiens with 18 samples.

Results

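The 10 genes described here encode the core of the microRNA pathway: DROSHA and DGCR8 of the microprocessor, DICER1, the Argonautes AGO1 to AGO4, and the scaffold genes TNRC6A, TNRC6B and TNRC6C. They were chosen by name, matched to the Ensembl identifiers of the count tables, and are 10 of the 62703 genes listed there. All 10 passed the filter on low counts in every fit, with 511 (AGO4) to 23606 (AGO2) reads per gene and library.

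As background, most microRNAs are cut out of a long nuclear transcript by the microprocessor, exported as a hairpin, cut again by Dicer and loaded as a short guide into an Argonaute protein. The guide pairs with messenger RNAs, and the TNRC6 scaffold then brings in enzymes that shorten the poly(A) tail and remove the cap. A competing RNA network, as the study proposes for the long noncoding RNA NEAT1 in multiple myeloma, acts through this machinery, because RNAs with sites for the same microRNA share the loaded Argonautes.

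The study treated cultured multiple myeloma cell lines with gapmers, antisense oligonucleotides that direct cleavage of their target RNA, and counted bulk RNA-seq reads per gene. Its 18 libraries form 6 groups of 3, for the line labels AMO1, H929 and LP1 and the gapmer labels SCR (scrambled control) and gN1E (directed at NEAT1). All groups were treated by gymnosis, the uptake of a gapmer without a carrier, and taken at 48 h per the sample labels and methods, while the series text gives 48 days. Libraries carry the letters A, C and D for AMO1, A, B and C for H929 and A, B and D for LP1.

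Total counts ran from 53227560 to 66142827 in AMO1 SCR, 28061606 to 49784737 in AMO1 gN1E, 34710995 to 54387667 in H929 SCR, 52856172 to 59302536 in H929 gN1E, 56542997 to 69937229 in LP1 SCR and 44091209 to 57247024 in LP1 gN1E. In AMO1 each library labelled gN1E was thus shallower than each labelled SCR, and the part of depth in the results was not tested beyond the scaling alternatives. Nothing in the labels says that the 3 libraries of a group came from separate cultures, so every p measures the spread between these samples, which may be technical. For a single value, a two-sided exact permutation test of 3 against 3 libraries cannot go below p = 0.1, so the tests used are edgeR fits across all genes. A gene is called where its Benjamini-Hochberg adjusted p over all genes tested is under 0.05, and levels are TMM-scaled CPM, a gene's counts relative to the scaled depth of its library.

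NEAT1 (ENSG00000245532.11, chromosome 11, 65422774 to 65445540, hg38), the gapmer's target, was measured first as a check of the labels. In AMO1 it stood at 75.7, 78.8 and 90.8 CPM in the libraries labelled SCR and at 473, 553 and 517 CPM in those labelled gN1E. In H929 the values were 79.8, 72.7 and 79.1 CPM under SCR and 554, 464 and 542 CPM under gN1E. In LP1 they were 135, 173 and 189 CPM under SCR and 656, 667 and 829 CPM under gN1E. Every library labelled with the gapmer against NEAT1 thus held more NEAT1 than every library labelled SCR of its line. The log2 difference, gN1E minus SCR, was 2.66 in AMO1 (SE 0.0744, adjusted p = 5.10e-13), 2.74 in H929 (SE 0.0683, adjusted p = 3.11e-14) and 2.14 in LP1 (SE 0.190, adjusted p = 0.0269). Leaving out SCR B (2.17, adjusted p = 0.176), gN1E A (2.20, 0.111), gN1E B (2.19, 0.0886) or gN1E D (2.01, 0.0578) ended the call in LP1. The differences of the effect between lines were 0.54 for AMO1 minus LP1 (adjusted p = 0.278), 0.64 for H929 minus LP1 (0.197) and -0.10 for AMO1 minus H929 (0.983). The names inside all 18 count tables carried the other gapmer than the label, and those of the 12 tables labelled H929 or LP1 also carried the other of these lines (0 for AMO1). Directions are therefore given as the library labelled gN1E against the library labelled SCR, with NEAT1 high in the former, and it is not known which label describes the treatment. For AMO1 the paper reports more genes down than up on NEAT1 knock-down. Here 377 genes were called higher and 96 lower in AMO1 under the label gN1E. An exchange of labels was not tested.

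The line labels were checked with genes that mark myeloma clones. FGFR3, a receptor switched on by the t(4;14) translocation, stood at 618 to 724 CPM in the libraries labelled LP1, at 1.22 to 1.48 CPM in those labelled H929 and at 0.0327 to 0.219 CPM in those labelled AMO1. NSD2, the other gene of that translocation, stood at 1547 to 1705 CPM under LP1, 214 to 267 CPM under H929 and 165 to 210 CPM under AMO1. As background, NCI-H929 and LP-1 are both known to carry t(4;14), so the libraries labelled H929 went against their label for these marks. IGHA1, an antibody heavy chain constant gene, stood at 7092 to 9811 CPM under H929 and 6642 to 9057 CPM under AMO1 against 7.29 to 9.54 CPM under LP1, and IGHG1 at 593 to 781 CPM under H929, 1.12 to 1.92 CPM under AMO1 and at most 0.242 CPM under LP1. The variable gene IGHV3-23 stood at 1032 to 1957 CPM under H929, 1434 to 2110 CPM under AMO1 and had 0 counts in all 6 libraries labelled LP1, where 3 counts are 0.0476 to 0.0729 CPM. The cyclin gene CCND2 had 1532 to 1686 CPM under H929, 1700 to 1903 CPM under AMO1 and 1.24 to 2.02 CPM under LP1, while the transcription factor gene MAF had 182 to 239 CPM under LP1, 28.7 to 38.9 CPM under H929 and at most 0.170 CPM under AMO1. Among further marks, CCND1 stood at 176 to 198 CPM under LP1, 22.3 to 29.1 CPM under H929 and 34.1 to 39.0 CPM under AMO1. The light chain gene IGKC stood at 6526 to 7364, 7810 to 9653 and 9560 to 11058 CPM in that order. IGLC2, also a light chain gene, stood at 5.30 to 7.30, 11.8 to 19.3 and 0.262 to 0.920 CPM. In IGHA1, IGHV3-23 and CCND2 the libraries labelled H929 thus stood near those labelled AMO1, while IGHG1, MAF and IGLC2 set them apart. Which line the libraries labelled H929 come from is not known. The line labels are therefore used as names of groups of libraries.

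All 8 plasma cell markers stood at 39.2 CPM or more in every library, and with the gapmer label edgeR called 2 of them, SDC1 higher (0.22, adjusted p = 0.0196) and CD38 lower (-0.21, adjusted p = 0.00406) in H929. Of 11 markers of other cell types, 8 stayed under 2 CPM in every library (at most 1.74 CPM). Of the B cell genes, PAX5 had 0 counts in all libraries of AMO1 and MS4A1 in all of LP1. Of the T cell genes, CD3D had 0 counts in all libraries of H929 and at most 0.0402 CPM elsewhere, while CD3E stood at 17.9 to 24.9 CPM in AMO1, 7.40 to 9.53 CPM in H929 and 10.1 to 15.1 CPM in LP1. The marker list summed to 75.2, 72.5 and 69.0 CPM in AMO1 SCR and 58.6, 56.5 and 57.0 CPM in AMO1 gN1E. It summed to 63.9, 66.0 and 62.9 CPM in H929 SCR and to between 49.0 and 50.6 CPM in H929 gN1E, and to 54.7, 54.5 and 54.7 CPM in LP1 SCR and 44.8, 49.5 and 48.7 CPM in LP1 gN1E. These sums were lower under gN1E in each line, and their part in the results was not tested. Most of each sum came from PTPRC and CD3E in AMO1 and H929 and from KRT18 and CD3E in LP1. A sum therefore does not measure other cell types as a whole. The most abundant marker in AMO1 and H929 was PTPRC, the leukocyte phosphatase CD45, which fell by 0.40 (adjusted p = 0.00198) and by 0.45 (adjusted p = 1.18e-06) on the log2 scale under gN1E. In LP1 it was KRT18, a keratin, at 32.2 to 38.0 CPM, with PTPRC at 0.00 to 0.190 CPM.

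Under the label gN1E, where NEAT1 was high, AGO2, DROSHA and TNRC6C were higher in AMO1 and in H929, by 0.26 to 0.42 on the log2 scale, and AGO3 alone of the 10 passed the test in LP1. Because of the line marks, agreement between the labels AMO1 and H929 is not read as a repeat in a distinct line. In AMO1, 3 of 10 members were called, all higher, beside 2.06% of all genes tested (473 of 22933, with 377 or 1.64% higher and 96 lower). In H929 the same 3 of 10 were called, all higher, beside 5.47% of all genes (1286 of 23499, with 870 or 3.70% higher and 416 lower). In LP1, 1 of 10 was called, higher, beside 1.43% of all genes (332 of 23165, with 152 or 0.656% higher and 180 lower). No member was called lower in any line, by edgeR at an unadjusted p under 0.05 or by limma-voom or DESeq2. Among genes averaging 2 or more in log2 CPM, as all members do, the shares called were higher than over all genes, at 3.66% in AMO1, 9.52% in H929 and 2.58% in LP1. The median log2 difference of the members was 0.08 in AMO1, 0.08 in H929 and 0.04 in LP1, beside -0.02, -0.01 and 0.00 over all genes. Among genes averaging 2 or more in log2 CPM the medians were 0.01, 0.01 and -0.01. Among those of them that span at least 100 kb they were 0.07, 0.05 and 0.02. In bulk RNA, fewer cells of a kind and less RNA per cell cannot be told apart.

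All libraries labelled gN1E stood above all labelled SCR for 5 members in AMO1 (AGO2, DROSHA, TNRC6A, TNRC6B and TNRC6C), for 6 in H929 (AGO1, AGO2, DROSHA, DGCR8, TNRC6A and TNRC6C) and for 1 in LP1 (AGO3). The groups overlapped for the other 5, 4 and 9 members, and no member had all gN1E libraries below. The shares of all genes that lay apart or overlapped in this way are not given here. These counts therefore describe the members and are not read as a difference from other genes. Scaling by library size alone turned the direction of no called member and ended the call of TNRC6C in AMO1 (0.22, adjusted p = 0.0810). It moved the share of higher calls among all genes from 79.7% to 51.2% in AMO1, from 67.7% to 42.8% in H929 and from 45.8% to 63.8% in LP1. With the replicate letter as a block, which pairs the AMO1 libraries, 1394 genes instead of 473 were called in AMO1, and the members called stayed at 3. The AMO1 values given here come from the fit without this block. The 2.06% of all genes set beside these members is thus the smaller background.

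**Figure D1:**
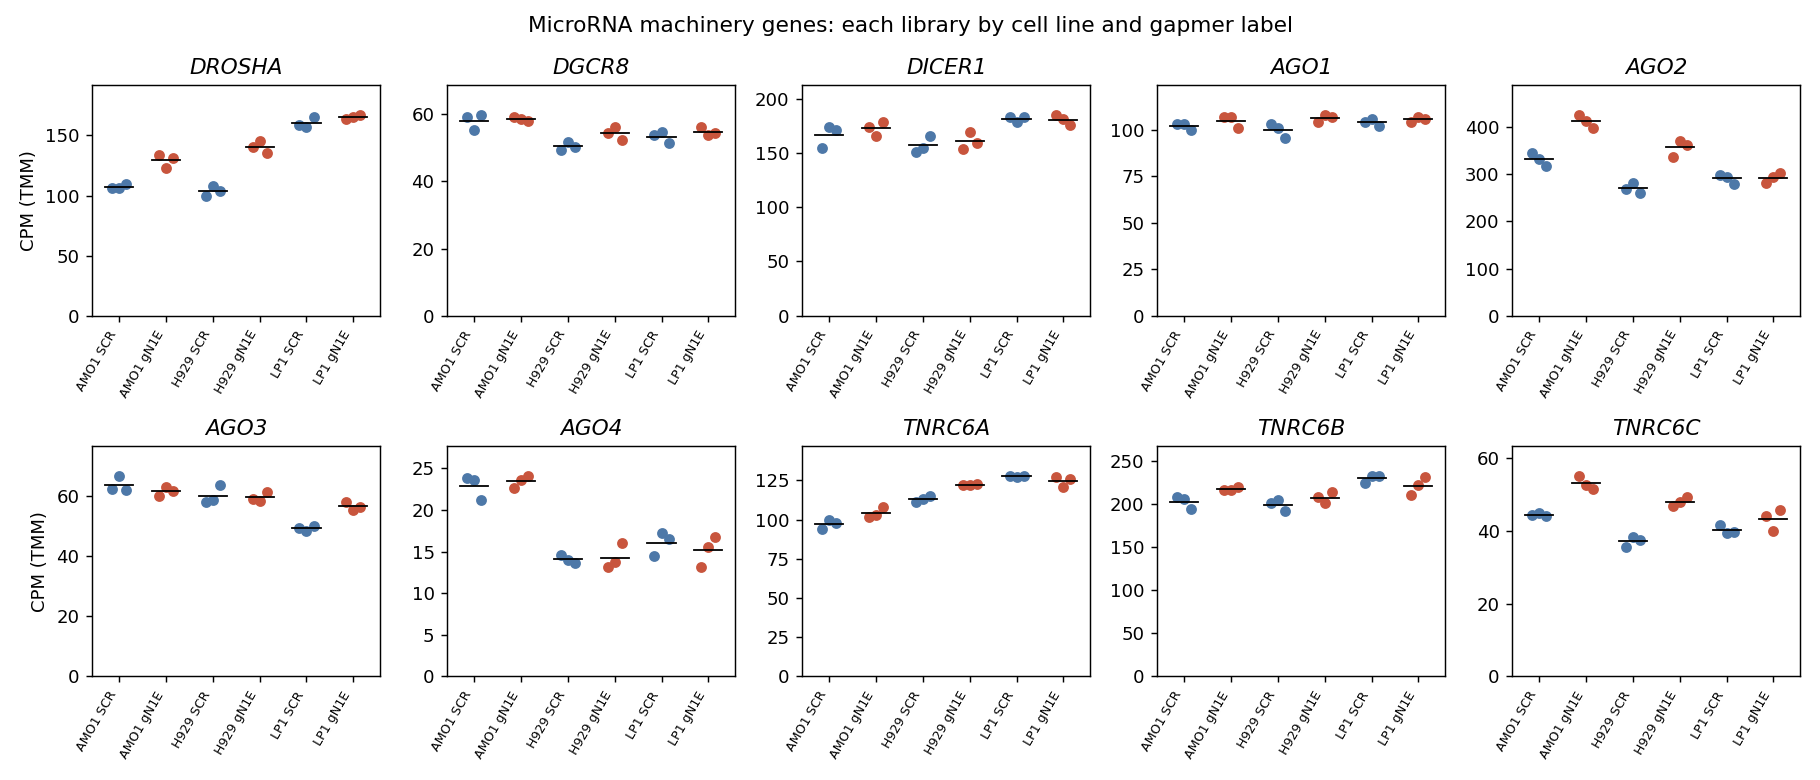
Level of each of the 10 members in all 18 libraries (CPM), 1 point per library, grouped by line label and gapmer label. AGO2 is at 397 to 425 CPM in AMO1 gN1E against 318 to 345 CPM in AMO1 SCR, while its LP1 groups overlap.

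DROSHA (ENSG00000113360.17, chromosome 5, 31400494 to 31532196) encodes the nuclear enzyme that makes the earliest cut in a microRNA transcript. In AMO1 it stood at 106, 106 and 110 CPM under SCR and at 134, 123 and 131 CPM under gN1E. In H929 the values were 99.5, 108 and 104 CPM under SCR and 140, 145 and 135 CPM under gN1E. In LP1 they were 159, 157 and 165 CPM under SCR and 164, 165 and 167 CPM under gN1E. The groups did not overlap in AMO1 or H929, and in LP1 all 6 libraries, under either gapmer label, stood above every library of the other lines. DROSHA rose by 0.27 in AMO1 (log2, SE 0.0550, 95% interval 0.15 to 0.38, adjusted p = 0.00829) and by 0.42 in H929 (SE 0.0485, 0.32 to 0.52, adjusted p = 6.31e-07). In LP1 the difference was 0.06 (SE 0.0466, -0.03 to 0.16, adjusted p = 0.612). The AMO1 call was lost without gN1E D (0.26, adjusted p = 0.0816), which left AGO2 as the 1 member called in AMO1.

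DROSHA, TNRC6C and the deadenylase gene CNOT6 are the genes called higher in both AMO1 and H929, apart from AGO2, among the members and their pathway lists, so the 250 bases before their starts are shown. They come from RefSeq (GRCh38.p14), 5′ to 3′ on the strand of the gene: chr5:31532094-31532343 on the reverse strand for DROSHA, chr17:77958453-77958702 on the forward strand for TNRC6C, and chr5:180494129-180494378 on the forward strand for CNOT6. TNRC6C has 4 windows in the table, of which the one nearest the annotated start was taken, and the annotation behind the counts starts DROSHA inside its window. Capitals mark each match, on either strand, to the GC box GGGCGG, the CCAAT box CCAAT, the E-box CACGTG, the ETS core CCGGAA or the TATA box TATAAA.
DROSHA: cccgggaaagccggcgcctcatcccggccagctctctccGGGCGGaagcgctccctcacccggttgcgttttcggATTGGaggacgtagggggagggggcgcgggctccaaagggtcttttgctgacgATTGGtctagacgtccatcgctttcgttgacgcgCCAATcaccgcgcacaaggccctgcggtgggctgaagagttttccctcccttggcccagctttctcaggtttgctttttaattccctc
TNRC6C: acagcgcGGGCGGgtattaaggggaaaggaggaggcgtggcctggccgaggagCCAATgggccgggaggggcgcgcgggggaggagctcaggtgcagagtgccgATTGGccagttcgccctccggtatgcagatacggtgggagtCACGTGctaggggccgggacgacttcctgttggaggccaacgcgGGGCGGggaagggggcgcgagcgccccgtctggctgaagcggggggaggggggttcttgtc
CNOT6: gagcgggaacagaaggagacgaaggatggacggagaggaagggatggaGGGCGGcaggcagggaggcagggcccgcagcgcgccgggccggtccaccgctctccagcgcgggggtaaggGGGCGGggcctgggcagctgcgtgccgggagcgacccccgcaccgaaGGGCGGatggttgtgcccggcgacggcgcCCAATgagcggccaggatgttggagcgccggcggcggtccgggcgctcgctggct
Each of these 3 windows held a GC box and a CCAAT box, and that of AGO2 was not examined. In the DROSHA window 1 GC box began 211 bases and 3 CCAAT boxes 175, 122 and 88 bases before the start. The TNRC6C window held 2 GC boxes (243 and 61 bases), 2 CCAAT boxes (197 and 146) and 1 E-box (105), and the CNOT6 window 3 GC boxes (202, 131 and 84) and 1 CCAAT box (55). No match shared bases with another. Of all 35116 windows of that length, 42.6% held the GC box, 32% the CCAAT box, 6.34% the E-box, 14.5% the ETS core and 10.7% the TATA box. GC content was 62% for DROSHA, 70.4% for TNRC6C and 75.2% for CNOT6, beside a median of 58%. A match describes these letters and is not evidence of binding.

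DGCR8 (ENSG00000128191.17, chromosome 22, 20080221 to 20111877) encodes the RNA-binding partner of DROSHA and passed the test in no line. Its 18 libraries lay between 49.4 and 59.8 CPM. In AMO1 the log2 difference was 0.02 (adjusted p = 0.952), or -0.02 when scaled by library size alone. In H929 it stood at 49.4, 51.8 and 50.3 CPM under SCR and 54.4, 56.1 and 52.4 CPM under gN1E, groups that did not overlap, with a difference of 0.09 that missed the threshold (adjusted p = 0.380). In LP1 the difference was 0.06 (adjusted p = 0.669). Of its exonic bases, 2.36% overlap microRNA genes on the same strand, MIR1306 and MIR3618, and 7.21% overlap genes on the opposite strand, which the stranded counting keeps apart.

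DICER1 (ENSG00000100697.17, chromosome 14, 95086228 to 95158010) encodes the cytoplasmic enzyme that cuts the exported hairpin. It ranged from 155 to 179 CPM in AMO1 (median 172), from 151 to 169 CPM in H929 (157) and from 176 to 185 CPM in LP1 (182). The gN1E and SCR groups overlapped in each line. The differences were 0.06 in AMO1 (adjusted p = 0.754), 0.01 in H929 (0.922), which was -0.03 when scaled by library size alone, and 0.02 in LP1 (0.920).

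AGO2 (ENSG00000123908.12, chromosome 8, 140520156 to 140635633) encodes the Argonaute that can itself cut a fully paired target. In AMO1 it stood at 345, 332 and 318 CPM under SCR and at 425, 412 and 397 CPM under gN1E. In H929 the values were 269, 281 and 259 CPM under SCR and 337, 371 and 362 CPM under gN1E. In LP1 they were 298, 294 and 280 CPM under SCR and 282, 293 and 302 CPM under gN1E. The groups lay apart in AMO1 and H929 and overlapped in LP1. AGO2 rose 1.24-fold in AMO1 (log2 0.31, SE 0.0528, 95% interval 0.20 to 0.42, adjusted p = 0.00120) and 1.31-fold in H929 (0.39, SE 0.0485, 0.29 to 0.49, adjusted p = 1.84e-06). In LP1 the difference was 0.03 (SE 0.0468, -0.07 to 0.13, adjusted p = 0.851).

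AGO1, AGO3 and AGO4, whose proteins bind microRNAs like AGO2, are neighbours on chromosome 1, where AGO4 (ENSG00000134698.11) spans 35808016 to 35857890, AGO1 (ENSG00000092847.14) 35869808 to 35930532 and AGO3 (ENSG00000126070.20) 35930718 to 36072500. Of these, AGO3 was called in LP1 and the other 2 in no line. AGO3 in LP1 stood at 49.6, 48.5 and 50.3 CPM under SCR and at 58.0, 55.5 and 56.5 CPM under gN1E, without overlap. It rose there by 0.22 (SE 0.0517, 95% interval 0.11 to 0.33, adjusted p = 0.0344), and its differences were -0.05 in AMO1 (adjusted p = 0.807) and -0.03 in H929 (0.866). The LP1 call was lost without SCR A (adjusted p = 0.141), SCR B (0.227), gN1E A (0.146), gN1E B (0.0818) or gN1E D (0.0834), with limma-voom (0.0545), with the replicate letter as a block (0.0598) and in a joint fit of the 18 libraries (0.0651). AGO1 stayed between 95.9 and 108 CPM in all 18 libraries, with differences of 0.04, 0.07 and 0.05 in AMO1, H929 and LP1, and its gN1E libraries stood above its SCR libraries in H929. AGO4 had 21.2 to 24.1 CPM in AMO1, 13.1 to 16.0 CPM in H929 and 13.2 to 17.2 CPM in LP1. Its differences were 0.04, 0.01 and -0.06, of which the H929 value was -0.03 and the AMO1 value 0.00, just below 0, when scaled by library size alone.

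TNRC6C (ENSG00000078687.18, chromosome 17, 77958703 to 78108822) encodes one of the related scaffolds that link Argonaute to deadenylases, and its window before the start is printed with that of DROSHA. Of the exonic bases of TNRC6C, 12.3% overlap TMC6 on the opposite strand, which the stranded counting keeps apart. In AMO1 it stood at 44.4, 44.9 and 44.1 CPM under SCR and at 55.1, 52.5 and 51.6 CPM under gN1E. In H929 the values were 35.6, 38.2 and 37.6 CPM under SCR and 46.7, 47.9 and 49.4 CPM under gN1E. In LP1 they were 41.6, 39.5 and 39.7 CPM under SCR and 44.1, 40.0 and 45.8 CPM under gN1E. The groups lay apart in AMO1 and H929, and in LP1 gN1E B fell among the SCR libraries. TNRC6C rose by 0.26 in AMO1 (SE 0.0616, 95% interval 0.13 to 0.39, adjusted p = 0.0277) and by 0.36 in H929 (SE 0.0544, 0.25 to 0.47, adjusted p = 4.82e-05), with 0.13 in LP1 (SE 0.0593, 0.00 to 0.25, adjusted p = 0.363). The AMO1 call was lost without SCR A (adjusted p = 0.0501), SCR D (0.127), gN1E A (0.102), gN1E C (0.0933) or gN1E D (0.0971), and with scaling by library size alone (0.22, adjusted p = 0.0810).

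TNRC6A (ENSG00000090905.19, chromosome 16, 24610209 to 24827632) and TNRC6B (ENSG00000100354.21, chromosome 22, 40044817 to 40335808) encode the other scaffolds and passed the test in no line. TNRC6A ranged from 93.8 to 108 CPM in AMO1, 111 to 123 CPM in H929 and 121 to 128 CPM in LP1. Its gN1E libraries stood above its SCR libraries in AMO1 (0.11, adjusted p = 0.462) and H929 (0.10, 0.245). In LP1 its difference was -0.02 (0.932), or 0.01 when scaled by library size alone. TNRC6B ranged from 195 to 220 CPM in AMO1, 192 to 214 CPM in H929 and 211 to 233 CPM in LP1, with differences of 0.10 (0.433), 0.05 (0.655) and -0.04 (0.814).

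**Figure D2:**
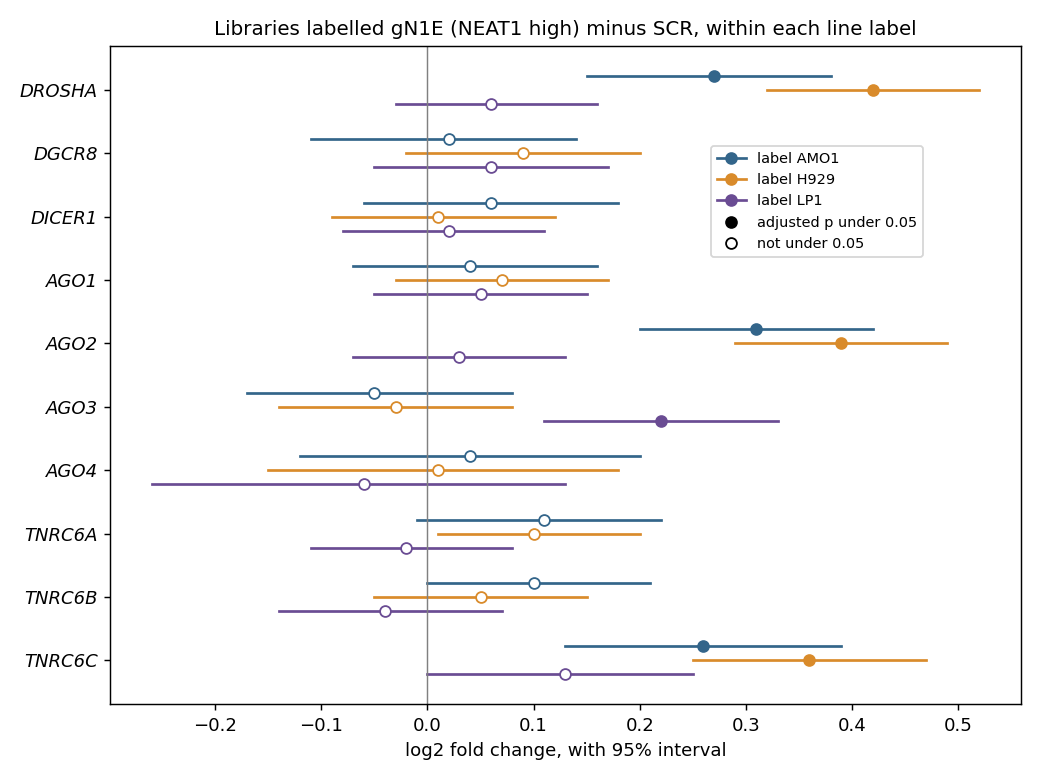
Log2 difference of each member, gN1E minus SCR, within each line label, with 95% intervals (3 against 3 libraries). AGO2, DROSHA and TNRC6C are called in AMO1 and H929 (0.26 to 0.42) and AGO3 in LP1 (0.22), while scaling by library size alone turned the sign of AGO4 in AMO1 and H929, DGCR8 in AMO1, DICER1 in H929 and TNRC6A in LP1, none of them called.

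Averaged over the 3 lines with equal weight, 3 of 10 members were called, all higher under gN1E, beside 6.61% of all genes (1747 of 26436, with 1032 or 3.90% higher and 715 lower) and 12.4% of genes averaging 2 or more in log2 CPM (7.66% higher and 4.76% lower). They were DROSHA (0.25, SE 0.0276, adjusted p = 5.71e-08), AGO2 (0.24, SE 0.0289, adjusted p = 2.17e-07) and TNRC6C (0.24, SE 0.0328, adjusted p = 2.14e-06). NEAT1 stood 2.51 higher in the same contrast (adjusted p = 6.95e-11). The other 7 members lay between -0.01 (AGO4) and 0.06 (TNRC6A, adjusted p = 0.203), and the median over the members was 0.05 beside -0.02 over all genes. It was 0.00 among genes averaging 2 or more in log2 CPM, and 0.03 among those of them that span at least 100 kb. Of the latter, 22.1% were called (19.4% higher and 2.75% lower). Leaving out the libraries labelled H929, a choice made after seeing the data because of their line marks, gave 0.16 for AGO2 (adjusted p = 0.00579), 0.15 for DROSHA (0.00517) and 0.18 for TNRC6C (0.00617). Scaling by library size alone moved the share of higher calls among all genes from 59.1% to 45.8%.

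Whether the movement with the label differed between lines was tested in its own contrast. AGO2 moved more in H929 than in LP1, by 0.40 (SE 0.0707, 95% interval 0.25 to 0.54, adjusted p = 0.00124), and so did DROSHA, by 0.39 (SE 0.0675, 0.25 to 0.53, adjusted p = 9.76e-04). These were 2 of 10 members, beside 0.874% of all genes (231 of 26436, of which 84.4% were higher, or 53.2% when scaled by library size alone). Between AMO1 and LP1, AGO2 was the 1 member called, at 0.30 (SE 0.0707, 0.16 to 0.45, adjusted p = 0.0266), beside 0.741% of all genes (196, of which 81.6% were higher, or 46.6% when scaled by library size alone). That call was lost without AMO1 SCR D (adjusted p = 0.105), AMO1 gN1E A (0.0777), AMO1 gN1E C (0.0579), LP1 SCR A (0.0793), LP1 SCR B (0.0788), LP1 gN1E A (0.0920) or LP1 gN1E B (0.0576), and with scaling by library size alone (0.22, adjusted p = 0.180). With edgeR, TNRC6C was not called between AMO1 and LP1 (0.15, adjusted p = 0.522) or between H929 and LP1 (0.27, 0.137), nor was DROSHA between AMO1 and LP1 (0.22, 0.137). For AGO3 the edgeR differences were -0.25 for AMO1 minus LP1 (adjusted p = 0.137) and -0.21 for H929 minus LP1 (0.260). DESeq2 called 3 members between AMO1 and LP1, adding DROSHA (0.24, adjusted p = 0.0212) and AGO3 (-0.24, 0.0344) to AGO2. Its share of all genes called in that contrast is not given here, so the count is not set against other genes. Between AMO1 and H929, edgeR called 0 of 10 members beside 0.00% of all genes. At an unadjusted p under 0.05 it held 1 member, DROSHA (-0.16, SE 0.0678, adjusted p = 0.692), and 1771 genes, while limma-voom called 0 members and 0 genes and DESeq2 0 members and 5 genes. The median over the members was -0.04 for AMO1 minus H929, 0.13 for AMO1 minus LP1 and 0.12 for H929 minus LP1, beside -0.02, 0.01 and 0.03 over all genes. These contrasts share libraries and are not independent of each other or of the results within lines.

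Set against each other per length (CPM per kb of exon), AGO2 and DROSHA were the most abundant members in each of the 6 groups. AGO2 had a level of 20.9 ± 0.860 CPM per kb in AMO1 SCR and 26.0 ± 0.888 CPM per kb in AMO1 gN1E (mean and SD, n = 3). It had 17.0 ± 0.696 and 22.5 ± 1.11 CPM per kb in H929 SCR and gN1E, and 18.3 ± 0.580 and 18.4 ± 0.636 CPM per kb in LP1 SCR and gN1E. DROSHA had 13.8 ± 0.267 and 16.6 ± 0.705 CPM per kb in AMO1 SCR and gN1E, 13.3 ± 0.532 CPM per kb in H929 SCR and 17.3 to 18.6 CPM per kb in the H929 gN1E libraries, and 20.6 ± 0.561 and 21.2 ± 0.226 CPM per kb in LP1. In AMO1 and H929 the AGO2 level was the higher, and in LP1 the DROSHA level was. Next in group means came TNRC6B at 9.95 to 11.5 CPM per kb. TNRC6A (7.50 to 9.87 CPM per kb), DICER1 (7.11 to 8.20), DGCR8 (6.89 to 8.00) and AGO1 (7.13 to 7.58) followed. Their order was not resolved in AMO1, where the library values per kb of neighbouring genes overlapped, nor between DICER1, DGCR8 and AGO1 in H929, nor between DGCR8 and AGO1 in LP1. TNRC6C (3.19 to 4.56 CPM per kb), AGO3 (2.34 to 3.02) and AGO4 (1.89 to 3.16) were lowest, and the library values per kb of AGO3 and AGO4 overlapped in AMO1 SCR and LP1 SCR.

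AGO2 made up most of the Argonaute RNA on this per-kb scale. Its share of the 4 Argonautes was 61.0% ± 0.635 in AMO1 SCR and 65.7% ± 0.696 in AMO1 gN1E (mean and SD, n = 3). The share was 58.9% ± 0.856 and 64.6% ± 0.779 in H929 SCR and gN1E, and 60.6% ± 0.854 and 60.1% ± 0.328 in LP1. It was thus higher under gN1E by more than the spread in AMO1 and H929. Of the TNRC6 genes, TNRC6B made up 43.4% to 47.3% in group means, TNRC6A 34.3% to 39.9% and TNRC6C 13.9% to 19.4%. The TNRC6C share was 17.8% and 19.4% in AMO1 SCR and gN1E, 14.6% and 17.2% in H929, and 13.9% and 15.2% in LP1.

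The line labels were compared over both gapmer labels, 6 libraries against 6, and most members were called between LP1 and the others, as were most genes. DROSHA was lower in AMO1 and H929 than in LP1, AGO4 was higher in AMO1 than in either other line, and AGO1 was called in no pair after TMM scaling. AGO1 was called lower with DESeq2 for H929 minus LP1 (-0.07, adjusted p = 0.0337), and higher when scaled by library size alone for H929 minus LP1 (0.17, 4.48e-05) and AMO1 minus LP1 (0.16, 6.78e-05). Between AMO1 and H929, 6 of 10 members were called (5 higher in AMO1, 1 lower), beside 44.4% of all genes (11731 of 26436, 21.2% higher and 23.2% lower). Between AMO1 and LP1, 9 of 10 were called (5 higher, 4 lower), beside 75.9% of all genes (20054, 37.9% higher and 37.9% lower). Between H929 and LP1, 7 of 10 were called (2 higher, 5 lower), beside 74.6% of all genes (19732, 38.4% higher and 36.2% lower), and among genes averaging 2 or more in log2 CPM, as all members do, the shares called were 64.8%, 88.6% and 88.2% in these pairs. Over the gN1E libraries alone 4 members instead of 7 were called between H929 and LP1. That fit held 3 against 3 libraries, and its share of all genes called is not given here. In the fits of 6 against 6 libraries, the members' counts against LP1 were thus close to, or under, the share of abundant genes. The medians over the members were 0.08, 0.04 and -0.08 in these pairs, beside 0.00, 0.02 and 0.05 over all genes. Over genes averaging 2 or more in log2 CPM the medians were 0.00, -0.06 and -0.04. Scaling by library size alone moved the all-gene median to 0.20 for AMO1 minus LP1 and 0.24 for H929 minus LP1. Under it DICER1 and TNRC6B turned sign in AMO1 minus LP1, as did AGO4, DICER1, TNRC6A and TNRC6B in H929 minus LP1, all called in the TMM fit. Of these turned values, DICER1 (0.09, adjusted p = 0.0337) and TNRC6B (0.08, 0.0429) in AMO1 minus LP1 and TNRC6A (0.09, 0.0312) in H929 minus LP1 passed the threshold in the new direction. The pairs share libraries, so each value is given on its own.

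DROSHA stood at 106 to 134 CPM in AMO1 (median 116), 99.5 to 145 CPM in H929 (122) and 157 to 167 CPM in LP1 (164). No library of AMO1 or H929 reached the lowest of LP1. It was 0.724 times as high in AMO1 as in LP1 (log2 -0.47, SE 0.0338, adjusted p = 2.19e-14) and 0.740 times as high in H929 as in LP1 (-0.43, SE 0.0338, adjusted p = 1.41e-13). AMO1 minus H929 was -0.03 (adjusted p = 0.497), or 0.05 over the SCR libraries alone. Its partner DGCR8 ran the other way between AMO1 and LP1, at 0.11 (SE 0.0367, adjusted p = 0.00836), and was 0.16 higher in AMO1 than in H929 (SE 0.0367, adjusted p = 6.69e-04). Over the gN1E libraries alone both DGCR8 calls were lost (adjusted p = 0.107 for each), the former also with DESeq2 (0.0798) and RLE scaling (0.103). H929 minus LP1 was -0.05 for DGCR8 (adjusted p = 0.247), was called with DESeq2 (-0.09, 0.0131) and RLE scaling (-0.09, 0.0259), and was called the other way when scaled by library size alone (0.14, 8.99e-04).

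DICER1 differed by small amounts, 0.10 for AMO1 minus H929 (adjusted p = 0.0318), -0.09 for AMO1 minus LP1 (0.0230) and -0.19 for H929 minus LP1 (2.48e-05). Scaled by library size alone, the last 2 became 0.09 and 0.00. The AMO1 minus H929 call was lost without AMO1 SCR C (adjusted p = 0.0909), SCR D (0.0744), gN1E A (0.0671) or gN1E D (0.0894), without H929 SCR A (0.0954), SCR B (0.0674), gN1E A (0.0959) or gN1E C (0.0605), with library size scaling (0.0616) or no filter (0.168), and in either gapmer label alone (0.108 and 0.239). The AMO1 minus LP1 call was lost without AMO1 SCR A (0.0958), AMO1 gN1E C (0.0690) or LP1 gN1E A (0.0529), and over the gN1E libraries alone (0.288).

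AGO4 was 1.63-fold higher in AMO1 than in H929 (log2 0.71, SE 0.0615, adjusted p = 1.26e-11) and 1.48-fold higher than in LP1 (0.57, SE 0.0613, adjusted p = 3.51e-10). Its lowest AMO1 library, at 21.2 CPM, stood above the highest of the other lines, at 17.2 CPM. H929 minus LP1 was -0.14 (adjusted p = 0.0481), which turned to 0.06 when scaled by library size alone. That call was lost with limma-voom (0.0931), with no filter (0.0727), over the gN1E (0.439) or SCR (0.0530) libraries alone, and without AMO1 SCR C, gN1E C or gN1E D, LP1 SCR B, SCR D, gN1E B or gN1E D, or H929 SCR B, SCR C, gN1E A or gN1E B (adjusted p from 0.0516 to 0.173). AGO3 was lower in LP1 than in AMO1 (0.25, SE 0.0374, adjusted p = 4.54e-07) and in H929 (0.18, SE 0.0373, adjusted p = 6.61e-05), the latter not called over the gN1E libraries alone (0.07, 0.223). AGO1 had medians of 103, 104 and 105 CPM in AMO1, H929 and LP1, with differences of 0.00, -0.02 and -0.02 that turned to -0.01 for AMO1 minus H929, 0.16 for AMO1 minus LP1 and 0.17 for H929 minus LP1 when scaled by library size alone.

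AGO2 was higher in AMO1, at 318 to 425 CPM (median 371), than in H929, at 259 to 371 CPM (309), and LP1, at 280 to 302 CPM (294). Only the ranges of AMO1 and LP1 did not overlap. It was 0.25 higher in AMO1 than in H929 (SE 0.0353, adjusted p = 3.39e-07) and 1.27-fold higher than in LP1 (0.34, SE 0.0354, adjusted p = 1.51e-10). H929 minus LP1 was 0.09 (adjusted p = 0.0225), but -0.11 over the SCR libraries alone (0.0560). This call was lost with DESeq2 (0.252), with RLE scaling (0.253) and without LP1 SCR D (0.0608), LP1 gN1E A (0.0664), H929 SCR B (0.0712) or H929 gN1E B (0.0686).

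Among the scaffolds, TNRC6A was lowest in AMO1, at 0.797 times its LP1 level (log2 -0.33, SE 0.0325, adjusted p = 6.01e-11) and 0.857 times its H929 level (-0.22, SE 0.0325, adjusted p = 6.93e-07). H929 minus LP1 was -0.10 (adjusted p = 0.00456), which turned to 0.09 when scaled by library size alone and was not called over the gN1E libraries alone (-0.03, 0.601) or with no filter (0.0501). TNRC6C was highest in AMO1, 0.20 above H929 (SE 0.0402, adjusted p = 7.86e-05) and 0.22 above LP1 (SE 0.0402, adjusted p = 1.04e-05). H929 minus LP1 was 0.02 for TNRC6C (adjusted p = 0.733), and was called with library size scaling (0.21, 6.82e-05) and over the gN1E libraries alone (0.15, 0.0215) but -0.12 over the SCR libraries alone. TNRC6B was lower than in LP1 in AMO1 (-0.10, adjusted p = 0.00601) and H929 (-0.15, 1.40e-04), values that turned to 0.08 and 0.04 when scaled by library size alone and were not called over the gN1E libraries alone (-0.02 with 0.669, and 0.0870).

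**Figure D3:**
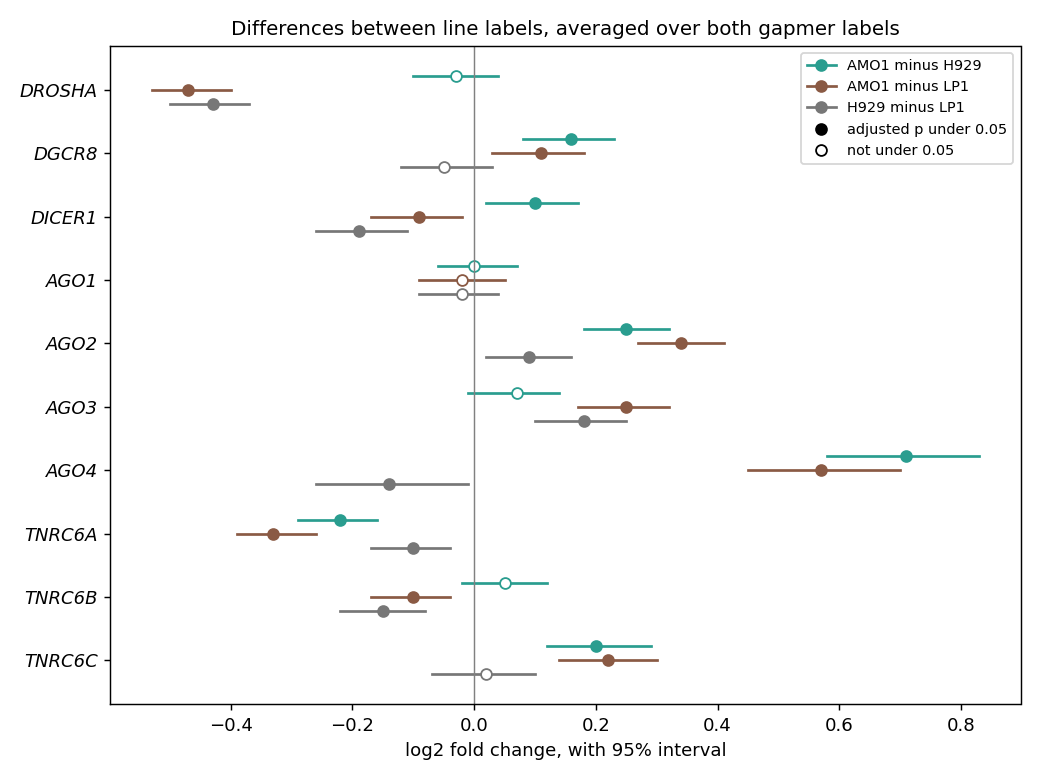
Log2 difference of each member between line labels, 6 against 6 libraries, with 95% intervals. DROSHA is at -0.47 and -0.43 against LP1 and AGO4 at 0.71 and 0.57 for AMO1, while scaling by library size alone turns AGO1, DICER1 and TNRC6B in both pairs with LP1, AGO4, DGCR8 and TNRC6A in H929 minus LP1 and AGO1 in AMO1 minus H929.

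Over the 6 group means, AGO4 spanned the widest range (0.74 in log2 CPM, high in AMO1 gN1E and low in H929 SCR), followed by DROSHA (0.67, high in LP1 gN1E and low in H929 SCR) and AGO2 (0.61, high in AMO1 gN1E and low in H929 SCR). TNRC6C spanned 0.51, TNRC6A 0.40, AGO3 0.37, DGCR8 0.22, DICER1 0.21, TNRC6B 0.21 and AGO1 0.09. Among 11756 genes, the patterns most like AGO4 over the 18 libraries were those of ERN1 (Pearson r = 0.962), PREX1 (0.955) and LINC00938 (0.954). For AGO2 they were BLTP1 (0.947), NUDCD3 (0.942) and WDR70 (0.941), and for DICER1 NSMAF (0.920), MARCHF7 (0.914) and NCAPG (0.912). These r values describe libraries that share line and label, and carry no test.

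The members called in AMO1 and H929 are long genes, with AGO2 spanning 115.5 kb, DROSHA 131.7 kb and TNRC6C 150.1 kb. AGO3 (141.8 kb), TNRC6A (217.4 kb) and TNRC6B (291.0 kb) also span over 100 kb and were not called there. AGO1, AGO4, DICER1 and DGCR8 span 31.7 to 71.8 kb. Among genes averaging 2 or more in log2 CPM, 10.1% of those spanning at least 100 kb were called higher in AMO1 (209 of 2077), against 1.38% of shorter genes. The shares were 17.0% (366 of 2157) against 4.35% in H929, and 2.64% (57 of 2161) against 0.872% in LP1. Averaged over the lines they were 19.4% (430 of 2217) against 4.94%. The part of gene length in the members' results was not tested.

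Among the pathway lists and hosts, the gene with the largest called difference with the label in each line was CNOT6, a catalytic deadenylase subunit of the CCR4-NOT complex that TNRC6 scaffolds recruit (ENSG00000113300.13, chromosome 5, 180494379 to 180578358), whose window is printed with that of DROSHA. In AMO1 it stood at 49.6, 51.8 and 51.1 CPM under SCR and at 102, 108 and 109 CPM under gN1E. In H929 the values were 37.8, 39.6 and 40.2 CPM under SCR and 84.4, 89.7 and 85.3 CPM under gN1E. In LP1 they were 68.0, 68.1 and 70.1 CPM under SCR and 100, 97.7 and 94.8 CPM under gN1E. The groups lay apart in each line. CNOT6 rose by 1.07 in AMO1 (SE 0.0578, adjusted p = 3.12e-10), by 1.13 in H929 (SE 0.0524, adjusted p = 6.00e-15) and by 0.53 in LP1 (SE 0.0490, adjusted p = 3.97e-06). It rose more in AMO1 than in LP1, by 0.56 (SE 0.0699, adjusted p = 6.83e-06), and more in H929 than in LP1, by 0.64 (SE 0.0703, adjusted p = 5.18e-07). It was the 1 gene of 12 called in the deadenylation list in each line and on average, where list medians were 0.05, 0.02 and 0.03 in AMO1, H929 and LP1.

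Few other genes of the pathway lists were called with the label, beside 2.06%, 5.47% and 1.43% of all genes in AMO1, H929 and LP1 and 6.61% on average. Of 15 genes of primary processing and export, the 1 called was ZC3H18, an RNA export and decay adaptor, in H929 (0.18, adjusted p = 0.0499), with list medians of 0.06, 0.09 and 0.00. It was kept in 4 of 14 alternatives, and lost without H929 SCR A (0.174), SCR B (0.0716), SCR C (0.141), gN1E A (0.317) or gN1E B (0.0820), with limma-voom, library size alone (0.142), filterByExpr (0.0557) or the replicate block (0.0756), and in the joint fit (0.0775). Of 12 Dicer partners and loading factors, the 1 called was IPO8, an import receptor that binds Argonaute, in H929 (0.18, adjusted p = 0.0472) and on average (0.14, 0.00244), with list medians of 0.01, 0.02 and -0.06. Its H929 call was kept in 5 of 14 alternatives, and lost without any of the 6 libraries labelled H929 (0.0523 to 0.240), with limma-voom (0.0698), with library size alone (0.189) and with the replicate block (0.0950). Of 11 decapping and decay genes, DCP1B (0.27, adjusted p = 0.0237) and EDC4 (0.18, 0.0353), both of the decapping complex, were called in H929, and the helicase gene DDX6 on average (0.11, 0.00815), with list medians of 0.07, 0.09 and 0.04. DCP1B was lost without H929 SCR A (0.149), SCR C (0.0696) or gN1E B (0.148), and EDC4 without SCR A (0.167), SCR C (0.108), gN1E B (0.239) or gN1E C (0.101). Both were lost with library size scaling (0.0743 and 0.131), and EDC4 also with limma-voom (0.0732), the replicate block (0.0502) and the joint fit (0.0679), so that DCP1B was kept in 10 and EDC4 in 6 of 14 alternatives. Of the turnover and tailing list (9 of 10 tested, and 8 in LP1), PNPT1, an exoribonuclease, was called on average (0.12, adjusted p = 0.0118), with list medians of 0.03, 0.08 and 0.02. Of 3 paraspeckle partners of NEAT1 (NONO, SFPQ and PSPC1), 0 were called by edgeR in any line or on average, with list medians of 0.12, 0.06 and -0.06. At an unadjusted p under 0.05, SFPQ (0.12) and PSPC1 (0.16) stood higher in AMO1 and PSPC1 in H929 (0.14) and on average (0.09), and no other tool was run on this list. Of all genes, 2803 of 22933 passed that cut in AMO1, 4156 of 23499 in H929 and 4959 of 26436 on average. For ZC3H18, IPO8, DCP1B and EDC4 no difference of the effect between lines was called (adjusted p of 0.250 or more), and no gene of these lists was called lower.

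**Figure D4:**
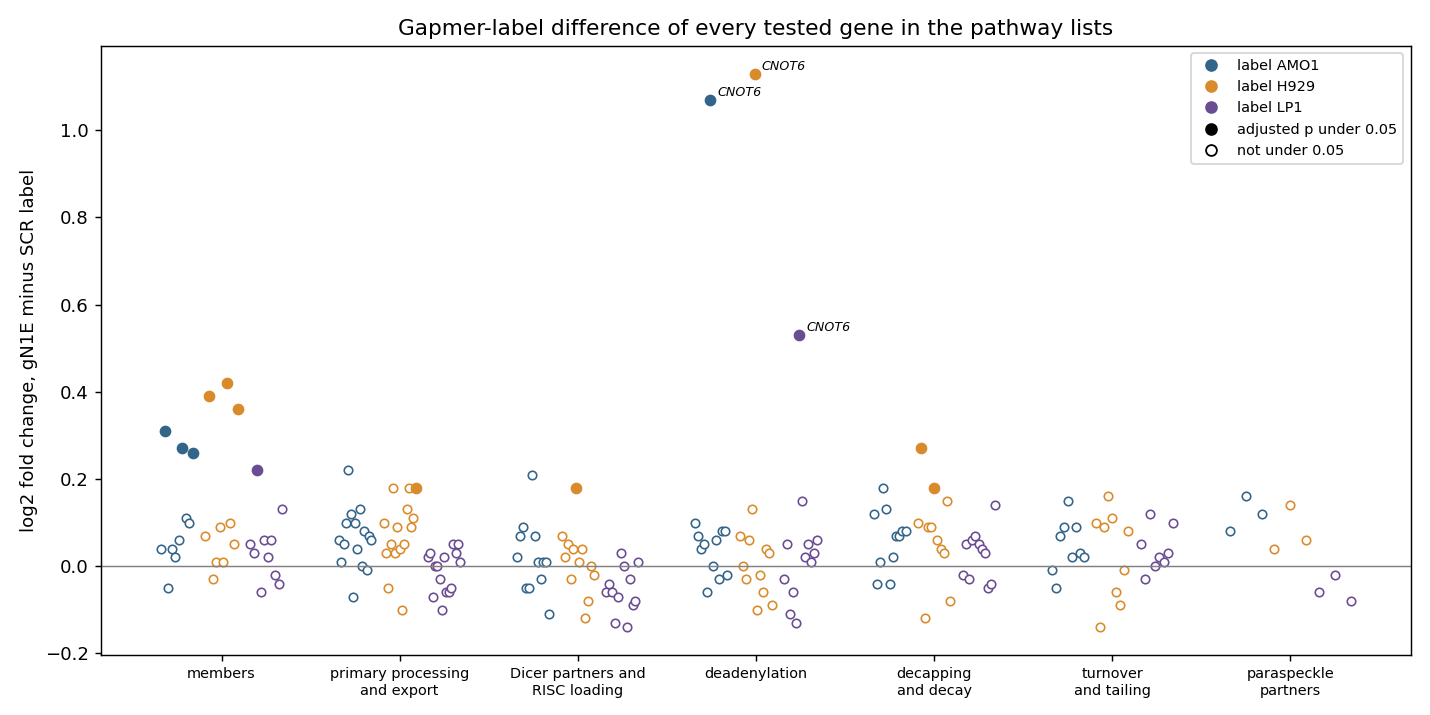
Log2 difference, gN1E minus SCR, of every tested gene of the members and the pathway lists within each line label, 1 point per gene. CNOT6 stands at 1.07 in AMO1, 1.13 in H929 and 0.53 in LP1, apart from the other genes.

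Between line labels, the counts of the lists stand beside 37.9% of all genes called higher and 37.9% lower in AMO1 than in LP1, 38.4% and 36.2% in H929 against LP1, and 21.2% and 23.2% in AMO1 against H929. No direction of a list as a whole was tested. Of the Dicer partners and loading factors, against LP1, 3 of 12 were called higher and 8 lower in AMO1 (median -0.54) and 3 higher and 8 lower in H929 (median -0.43). Of the deadenylation genes, against LP1, 8 of 12 were called higher and 3 lower in AMO1 (0.55) and 8 higher and 4 lower in H929 (0.17). Primary processing and export genes had 1 of 15 higher and 10 lower in AMO1 (-0.19) and 3 higher and 9 lower in H929 (-0.29) against LP1, counts that became 5 and 6, and 6 and 7, when scaled by library size alone. Decapping genes had 4 of 11 higher and 4 lower in AMO1 (-0.05) and 3 higher and 6 lower in H929 (-0.19), and turnover genes 7 higher and 1 lower in AMO1 (0.27) and 6 higher and 3 lower in H929 (0.35). Library size scaling gave 7 and 3, and 5 and 4, for decapping. Single called genes that it turned were SRRT, HNRNPA1, CNOT6 and DDX6 for AMO1 minus LP1 and KHSRP, LIMD1, CNOT8, PATL1 and ZSWIM8 for H929 minus LP1. For AMO1 minus H929 the counts higher and lower were 3 and 8 for primary processing, 3 and 8 for Dicer partners, 6 and 2 for deadenylation, 8 and 3 for decapping, 4 and 2 for turnover and 2 and 1 for paraspeckle partners, the last list having 2 higher and 0 lower in AMO1 and 1 and 0 in H929 against LP1.

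PAN3, a deadenylase subunit that TNRC6 scaffolds recruit, stood at 65.3 to 74.2 CPM in AMO1, 47.0 to 53.9 CPM in H929 and from 18.1 CPM with a median of 18.9 CPM in LP1 (log2 1.85 and 1.42 against LP1). LIN28B, which blocks let-7 maturation, had a median of 16.1 CPM (at most 16.5) in AMO1 and 15.4 to 20.1 CPM in H929 but 0 counts in 5 of 6 LP1 libraries, with a highest value of 0.0195 CPM, under the 3 count level. The genes that follow were picked after their values were seen. HSPA4, a chaperone gene of the loading list, had 74.0 to 82.2 CPM in AMO1, 89.2 to 105 CPM in H929 and 237 to 293 CPM in LP1 (-1.77 and -1.46). HSPA8 had 1129 to 1338, 1446 to 1644 and 3072 to 3575 CPM (-1.48 and -1.15). The export factors were also highest in LP1, with RAN at 340 to 384, 415 to 475 and 801 to 925 CPM (-1.24 and -0.98) and XPO5, which carries the hairpin to the cytoplasm, at 122 to 133, 130 to 156 and 183 to 209 CPM (-0.61 and -0.46). TARBP2, the RNA-binding partner of Dicer, ran the other way, at 32.0 to 37.4, 32.8 to 36.3 and 16.3 to 18.9 CPM (0.94 and 0.97). TUT7, a uridylating enzyme of hairpins, had 67.9 to 77.4, 70.7 to 80.1 and 197 to 214 CPM (-1.49 and -1.47). For each of these genes no library of AMO1 or H929 overlapped those of LP1.

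Host transcripts, the long RNAs from which microRNAs are cut, differed between the line labels in both directions, and they were not tested against the members. Mature microRNAs were not analysed here, and a host level is not the level of its microRNAs. All 16 listed hosts contain microRNA genes, with 66 mature microRNAs inside them, and those below belong to hosts that were called between LP1 and both other labels, picked as examples after their values were seen. They come from RefSeq (GRCh38.p14), with the seed, bases 2 to 8, in capitals and with equal seeds next to each other.
hsa-miR-17-5p: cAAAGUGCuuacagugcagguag
hsa-miR-20a-5p: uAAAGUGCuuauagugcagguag
hsa-miR-18a-5p: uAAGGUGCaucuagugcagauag
hsa-miR-181a-5p: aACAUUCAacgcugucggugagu
hsa-miR-181b-5p: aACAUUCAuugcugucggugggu
hsa-miR-99a-5p: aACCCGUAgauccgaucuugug
hsa-miR-503-5p: uAGCAGCGggaacaguucugcag
hsa-miR-92a-3p: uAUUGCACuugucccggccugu
hsa-miR-125b-5p: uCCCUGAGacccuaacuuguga
hsa-let-7c-5p: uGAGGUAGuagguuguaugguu
hsa-let-7b-5p: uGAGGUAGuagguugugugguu
hsa-miR-221-3p: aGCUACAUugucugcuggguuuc
hsa-miR-222-3p: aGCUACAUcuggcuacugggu
hsa-miR-19a-3p: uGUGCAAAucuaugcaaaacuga
hsa-miR-19b-3p: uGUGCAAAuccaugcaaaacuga
hsa-miR-155-5p: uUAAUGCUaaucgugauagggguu
MIR17HG holds the miR-17, miR-18a, miR-19a, miR-20a, miR-19b and miR-92a sequences between 91350618 and 91351382 on chromosome 13. It had 72.2 to 86.1 CPM in AMO1, 83.4 to 94.8 CPM in H929 and 17.9 to 25.5 CPM in LP1 (log2 1.96 for AMO1 minus LP1). MIR99AHG holds miR-99a, let-7c and miR-125b between 16539101 and 16590274 on chromosome 21, and had 65.2 to 87.5, 57.0 to 70.9 and 0.415 to 0.811 CPM (6.99). MIRLET7BHG, whose let-7b (46113691 to 46113712 on chromosome 22) has the same seed as let-7c, was the reverse, with 0.969 to 1.49, 1.96 to 2.96 and 4.63 to 6.89 CPM (-2.15). MIR155HG, host of miR-155 (25573983 to 25574006 on chromosome 21), had 23.2 to 26.9, 13.7 to 19.3 and 1.46 to 2.02 CPM (3.82). MIR181A1HG, host of miR-181a and miR-181b (198858925 to 198859130 on chromosome 1), had 74.1 to 90.3, 63.4 to 83.5 and 0.00 to 0.0972 CPM, the last around the level of 3 counts. MIR210HG, whose microRNA is not printed, had 1.49 to 5.88, 1.89 to 7.43 and 11.8 to 17.6 CPM (-2.13). Also higher in LP1 were MIR222HG, host of miR-221 and miR-222 (45746180 to 45747056 on chromosome X), with 4.38 to 5.83, 5.29 to 6.03 and 71.9 to 80.3 CPM (-3.95), and MIR503HG, host of miR-503 (134546371 to 134546393 on chromosome X), with 1.79 to 2.66, 2.89 to 4.10 and 54.1 to 68.7 CPM (-4.84). No host named here overlapped between LP1 and the others.

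Against LP1, 7 of 15 tested hosts were called higher and 8 lower in AMO1 (median -0.25) and 7 higher and 8 lower in H929 (-0.47), and AMO1 minus H929 had 7 higher and 5 lower (0.08). Over all genes the shares called were 75.9%, 74.6% and 44.4% in that order, with medians of 0.02, 0.05 and 0.00. MIR100HG was not tested, with 0 counts in AMO1 and at most 0.0454 CPM in LP1. With the gapmer label few hosts were called, beside 2.06%, 5.47% and 1.43% of all genes in AMO1, H929 and LP1 and 6.61% on average. In AMO1, edgeR called 0 of 15 (0 at an unadjusted p under 0.05, median -0.06), in H929 1 lower (-0.11), in LP1 2 higher of 14 (0.17), and on average 0 (3 at an unadjusted p under 0.05, median 0.02). Of all genes, 2803 of 22933 in AMO1 and 4959 of 26436 on average passed that unadjusted cut. No other tool was run over all hosts. MIR29B2CHG, host of the miR-29b-2 and miR-29c genes, stood at 40.7, 38.9 and 38.7 CPM in H929 SCR and 32.9, 31.2 and 35.4 CPM in H929 gN1E, without overlap. It fell by 0.26 there (SE 0.0589, adjusted p = 0.00547), a call lost without SCR A (-0.24, adjusted p = 0.0606) or gN1E B (-0.22, 0.0771), and its effect differed from LP1 by -0.40 (adjusted p = 0.00514). MIR34AHG rose in LP1 from 21.9, 23.2 and 20.2 CPM to 24.0, 26.1 and 29.6 CPM (0.31, adjusted p = 0.0496), a call lost without LP1 SCR A (0.182), SCR B (0.0777), SCR D (0.0854), gN1E B (0.120) or gN1E D (0.227), with limma-voom (0.107), RLE scaling (0.0526), filterByExpr (0.0583) or the replicate block (0.0938), and kept in 5 of 14 alternatives. Its effect in AMO1 differed from that in LP1 by -0.41 (adjusted p = 0.0351), but not without AMO1 SCR A (0.0859), SCR D (0.0782), gN1E A (0.0534) or gN1E D (0.128), or LP1 SCR A (0.0759), SCR D (0.101), gN1E B (0.0618) or gN1E D (0.164), nor with limma-voom (0.0789). MIR503HG rose in LP1 from 57.0, 54.1 and 55.8 CPM to 64.8, 60.7 and 68.7 CPM (0.24, adjusted p = 0.0312), a call lost without SCR A (0.0977), SCR B (0.204), gN1E A (0.0939) or gN1E D (0.138), with limma-voom (0.0617) and in the joint fit (0.221). It was kept in 8 of 14 alternatives, and no difference between lines was called for it (adjusted p from 0.254 to 0.881). For VMP1, host of miR-21, the effect in H929 differed from LP1 by -0.28 (adjusted p = 0.0450). That call was lost without any of the H929 libraries, without LP1 SCR A, SCR B, SCR D, gN1E A or gN1E B, without AMO1 SCR D or gN1E D (0.0539 to 0.168), and with limma-voom (0.0617).

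**Figure D5:**
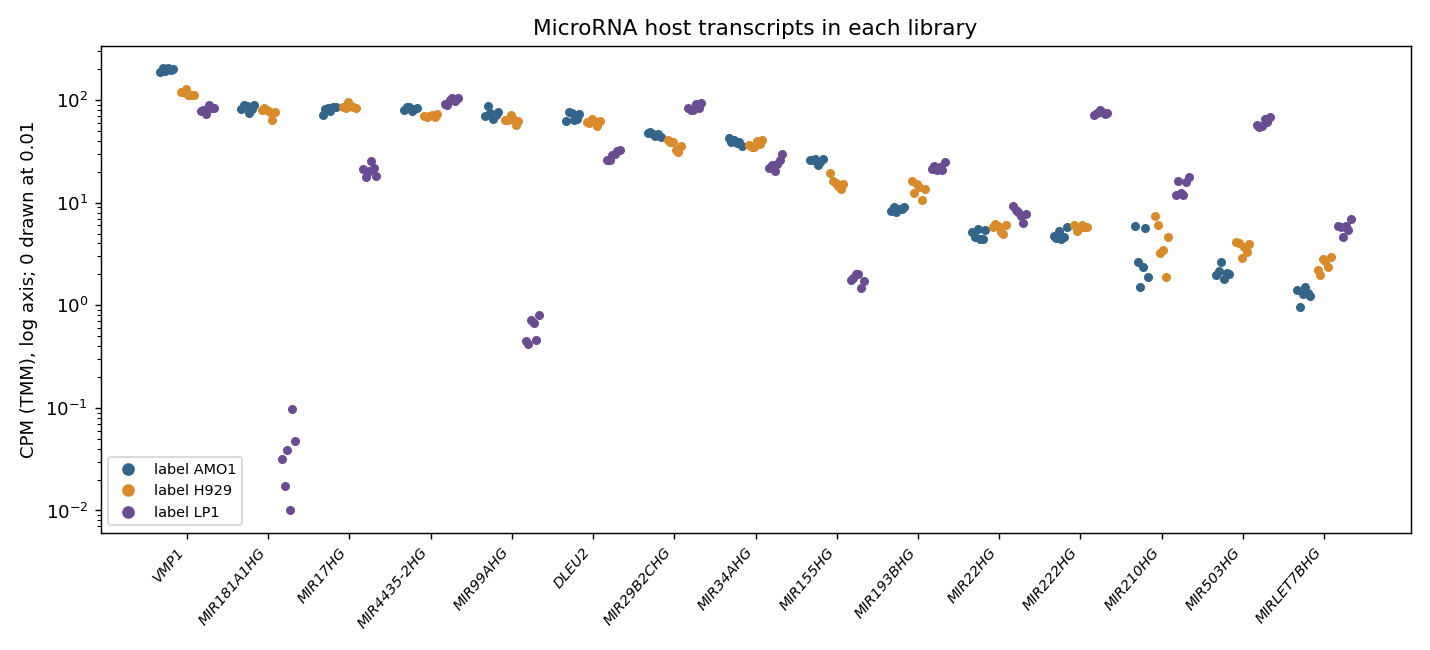
Level of the microRNA host transcripts in the 18 libraries (CPM, log axis), by line label, with 0 drawn at 0.01. MIR503HG and MIR222HG are highest in LP1 (54.1 to 68.7 and 71.9 to 80.3 CPM) and MIR99AHG and MIR17HG lowest there (0.415 to 0.811 and 17.9 to 25.5 CPM).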

How the data were processed

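The deposited counts per gene, 1 table for each of the 18 libraries, were made by the authors with STAR 2.7.10a on hg38 and reverse-stranded paired counting with featureCounts 1.6.4 on GENCODE release 43. Symbols were matched for 62686 of 62703 identifiers. The members and lists were chosen with earlier results of these data known.

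Counts were scaled by TMM and tested with the quasi-likelihood test of edgeR 4.0.16, over genes that reached 10 reads in 1 or more libraries of a fit, with Benjamini-Hochberg adjustment over all genes tested and a threshold of 0.05. Each line was fitted alone for gN1E against SCR. A joint fit of the 18 libraries, with a mean for each of the 6 groups, gave the averaged effect, the line pairs and the differences of effects. The edgeR fits of AMO1 alone, with and without the replicate block, of H929 alone and of the 18 libraries jointly were also run on simulated counts. In the joint fit this covered the AMO1 effect and the differences of effects AMO1 LP1 and H929 LP1. The other fits and the other tools were not run on simulated counts. CPM per kb divides by the length of the merged exons. The genes named were NEAT1, the 10 members, up to 10 called genes of the pathway lists per comparison, the largest log2 difference first, the line and cell type markers, and, for the member of widest range, AGO2 and DICER1, the 3 genes averaging 2 or more in log2 CPM with the highest Pearson r. Genes beyond that rule are named as such.

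Alternatives were limma-voom (limma 3.58.1), DESeq2 1.42.0, RLE scaling, library size alone, no filter, filterByExpr, the replicate letter as a block, a joint fit, each gapmer label alone, a 1.5-fold change together with an adjusted p under 0.1, and leaving out each library. Deviations from group means over 11758 genes correlated between gN1E and SCR libraries of the same letter at 0.143, 0.149 and 0.108 in AMO1 (A, C and D), each over 0.1, so the letters pair the AMO1 libraries by the data and not by the labels. A count of 3 is the level a library at 0 allows, for counting error only.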

Additional observations from a re-analysis of the deposited data

Results flagged for a closer look

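A test of the difference between lines in the gN1E minus SCR effect picked out 3 values. For AGO2 the effect in AMO1 exceeded that in LP1 by 0.30 on the log2 scale (adjusted p = 0.0266). That call was lost with scaling by library size alone (0.22, adjusted p = 0.180) and on leaving out certain single libraries (0.0576 to 0.105). For AGO2 the effect in H929 exceeded that in LP1 by 0.40 (adjusted p = 0.00124). For DROSHA the effect in H929 exceeded that in LP1 by 0.39 (adjusted p = 9.76e-04).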

How the results depend on the processing

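The member values were recomputed under 1535 combinations of a result with an alternative. Of these, 1415 kept their direction and their side of the threshold, 69 lost their call, 5 gained one and 46 changed sign. For the differences of effects these counts cover the called members AGO2 and DROSHA. Of the others, DROSHA and AGO3 were called by DESeq2 for AMO1 LP1, and no other alternative gave a further call. The cause was not tested. Each member had 511 or more reads in each library, and the part of depth in the calls was not tested.

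With a 1.5-fold change and an adjusted p under 0.1 required, which is a larger fold than most members had, the members called went from 3 to 0 in AMO1, from 3 to 0 in H929, from 1 to 0 in LP1 and from 3 to 0 on average, from 6 to 1 for AMO1 against H929, from 9 to 0 for AMO1 against LP1 and from 7 to 0 for H929 against LP1, and from 1 to 0 and from 2 to 0 for the differences of effects AMO1 LP1 and H929 LP1. The gN1E libraries alone gave 4 members for H929 against LP1. For the difference AMO1 LP1, DESeq2 gave 3 and library size alone 0. The shares of all genes called in these alternative fits are not given here, so the member counts are not set against other genes. In LP1, limma-voom gave 0 and the joint fit 0. Leaving out each library in turn gave 1 to 3 members in AMO1, 3 to 3 in H929, 0 to 1 in LP1, 0 to 1 for the difference AMO1 LP1, and a NEAT1 value of 2.00 to 2.25 in LP1. Leaving out H929, chosen after seeing the data, kept 3 members called on average.

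With the replicate block the members called were 3 in AMO1, 3 in H929, 0 in LP1 and 3 on average, and 0, 1 and 2 for the differences of effects, so the block ended the call of AGO3 in LP1 and changed no other call of a member. All genes called went from 473 to 1394 in AMO1, from 1286 to 931 in H929, from 332 to 243 in LP1 and from 1747 to 2042 on average, and for the difference H929 LP1 from 231 to 361. Same-letter correlations were -0.0588, 0.0291 and -0.0933 in H929 (A, B and C) and 0.145, -0.0120 and -0.0258 in LP1 (A, B and D), where 1 of 3 letters each correlated best with its own.

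Signs that changed for gN1E minus SCR under library size alone were AGO4 (0.00) and DGCR8 (-0.02) in AMO1, AGO4 (-0.03) and DICER1 (-0.03) in H929 and TNRC6A (0.01) in LP1, and in the joint fit DICER1 (0.00, just below 0) in LP1. For AMO1 minus H929 they were AGO1 with library size alone (-0.01), no filter (-0.02) and gN1E only (-0.02), and DROSHA with SCR only (0.05). For AMO1 minus LP1 with library size alone they were AGO1 (0.16), DICER1 (0.09) and TNRC6B (0.08). For H929 minus LP1 with library size alone they were AGO1 (0.17), AGO4 (0.06), DICER1 (0.00), DGCR8 (0.14), TNRC6A (0.09) and TNRC6B (0.04), with gN1E only AGO1 (0.01), with SCR only AGO2 (-0.11) and TNRC6C (-0.12), and with DESeq2 (-0.03) and RLE scaling (-0.03) TNRC6C.

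Leaving out each library in turn, values that crossed 0 ran from -0.01 to 0.07 for AGO4 and -0.02 to 0.04 for DGCR8 in AMO1, from -0.05 to 0.02 for AGO3, -0.08 to 0.07 for AGO4 and -0.02 to 0.06 for DICER1 in H929, and from 0.00 to 0.06 for AGO2, -0.15 to 0.03 for AGO4, -0.03 to 0.01 for TNRC6A and -0.08 to 0.00 for TNRC6B in LP1. They ran from -0.04 to 0.02 for AGO4 on average, from -0.01 to 0.02 for AGO1 in AMO1 minus H929 and from -0.01 to 0.04 for TNRC6C in H929 minus LP1.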
